A study of Mus musculus with 6 samples.

Results

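The Notch genes described here are the rows of the deposited count table whose symbols are Notch1, Notch2, Notch4, Dll1, Dll4, Jag1, Jag2, Hey1, Hey2 and Hes1. All 10 symbols were found among the 24411 genes of the table, and all 10 passed the filter on low counts. Hey1 did so with fewer than 1 CPM (count per 1000000 of library total) in every bEnd.3 library, and Hey2 with fewer than 1 CPM in every UV2 library. The study sequenced messenger RNA in bulk from a pair of mouse endothelial lines, with 3 libraries of UV2 (also written UV♀2, strain (BALB/c x C57BL/6)F1) and 3 libraries of bEnd.3 (strain BALB/c; brain endothelium made immortal by the middle T antigen of polyomavirus). Both lines had grown to confluence on dishes of 10 cm and then spent 3 days without serum. The labels describe no treatment that differed between the lines, do not say how UV2 was made, and leave unsaid whether replicate libraries stand for separate cultures. The p-values therefore measure the spread between these libraries, which may be technical. Each line is 1 cell line of 1 strain, so the line, its strain and its immortalisation cannot be told apart. The lines also differed in transcripts of chromosome Y. Its 4 genes with an average log2 CPM above 3 had a median log2 fold change, UV2 over bEnd.3, of -10.8. That difference cannot be told apart from the line either.

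Notch receptors are single-pass membrane proteins that are activated by ligands of the Delta-like and Jagged families on a neighbouring cell. Ligand binding lets an ADAM protease and then the gamma-secretase complex cut the receptor, and the freed intracellular part joins the DNA-binding protein RBPJ and a Mastermind coactivator to switch on targets such as the HES and HEY repressors. In blood vessels the pathway is known for its part in arterial identity and in the choice between leading tip cells and following stalk cells during sprouting.

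Levels are CPM with library totals scaled by TMM. Each log2 fold change is UV2 over bEnd.3, so a positive one means higher in UV2, and comes with its standard error (SE). Each adjusted p-value is Benjamini-Hochberg adjusted over all 12720 tested genes and comes from the quasi-likelihood test of edgeR. Library totals were between 21306441 and 28748128 expected counts. The summed level of 10 defining endothelial markers was 11819 to 13420 CPM in UV2 and 12286 to 13052 CPM in bEnd.3, and none of the 10 was absent from either line. Within that sum 1 marker was higher in UV2 (Tie1), 4 were lower and the other 5 missed the threshold. Robo4, at 88.7 CPM in UV2 and 449 CPM in bEnd.3, and Emcn, at 281 CPM in UV2 and 780.2 CPM in bEnd.3, were lower beyond 2-fold. The summed level of 9 mural cell markers was 3.16 to 5.75 CPM in UV2 and 0.814 to 1.26 CPM in bEnd.3, most of it Pdgfrb in UV2 (4.36 CPM against 0.287 CPM), with Des and Cnn1 at 0 in both lines. The sum of 7 fibroblast markers was 7.90 to 16.4 CPM in UV2 and 1.57 to 2.85 CPM in bEnd.3, with Tcf21 at 0. That of 7 leukocyte markers was 253 to 343 CPM in UV2 and 89.7 to 159 CPM in bEnd.3, nearly all of it Cd68, with Ptprc at 0 in UV2 and Adgre1 and Cd3e at 0 in both lines. That of 6 epithelial markers was 0.127 to 0.501 CPM in UV2 and 0 to 0.163 CPM in bEnd.3, and that of 6 astrocyte and neuron markers was 3.10 to 3.84 CPM in UV2 and 0.269 to 0.611 CPM in bEnd.3, most of the UV2 level being Tubb3. The part of these markers in the results below was not tested. In a bulk sample, fewer cells with a transcript and less of it per cell cannot be told apart.

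Most Notch transcripts were more abundant in UV2, and the HEY genes went opposite ways. Hey1 was 54.9 times as high in UV2 as in bEnd.3, while Hey2 was 16.0 times as high in bEnd.3. Notch2 and Dll1 were 4.85 and 3.31 times as high in UV2, and Jag2 was 3.23 times as high in bEnd.3. Of the 10 genes, 7 rose in UV2, 2 fell and 1, Dll4, did not pass the test. Many genes differed between these lines: 33.9% of all tested genes were called higher in UV2 and 33.3% lower, 67.1% in all. Tested against a change of 2-fold, Notch2, Dll1 and Hey1 were higher and Jag2 and Hey2 lower, 3 and 2 of 10, where 10.6% of all tested genes were called higher and 8.81% lower at that size. The median log2 fold change of the 10 was 0.56, beside -0.01 for all tested genes. The 10 genes were chosen with earlier results of these data known, so these counts and this median only describe them. At 9 of the 10 genes every library of one line lay beyond every library of the other, UV2 being above at 7 and below at 2. This was so at 73.2% of all tested genes, with UV2 above at 36.5% and below at 36.8%.

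**Figure D1:**
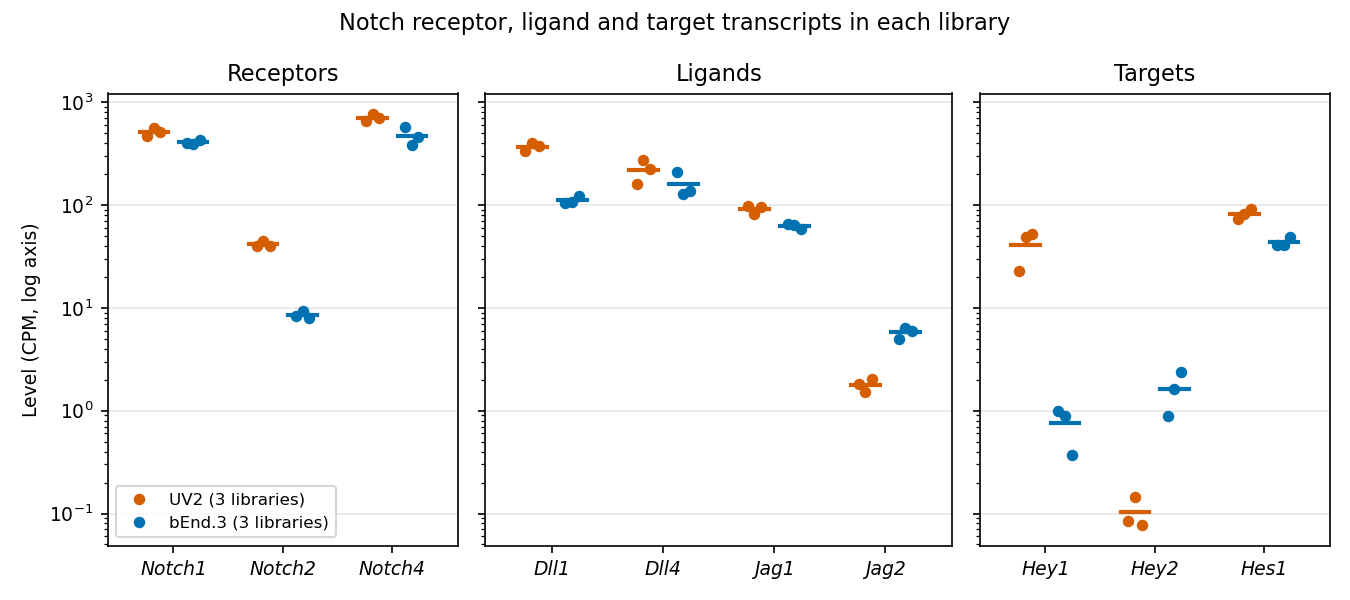
Level of each Notch gene in each library, in CPM on a log axis, with UV2 left of bEnd.3. Points are libraries and horizontal lines are means over 3 libraries. Hey1 lies between 22.9 and 52.4 CPM in UV2 and at or under 0.987 CPM in bEnd.3, Hey2 lies the other way, and the lines overlap at Dll4.

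**Figure D2:**
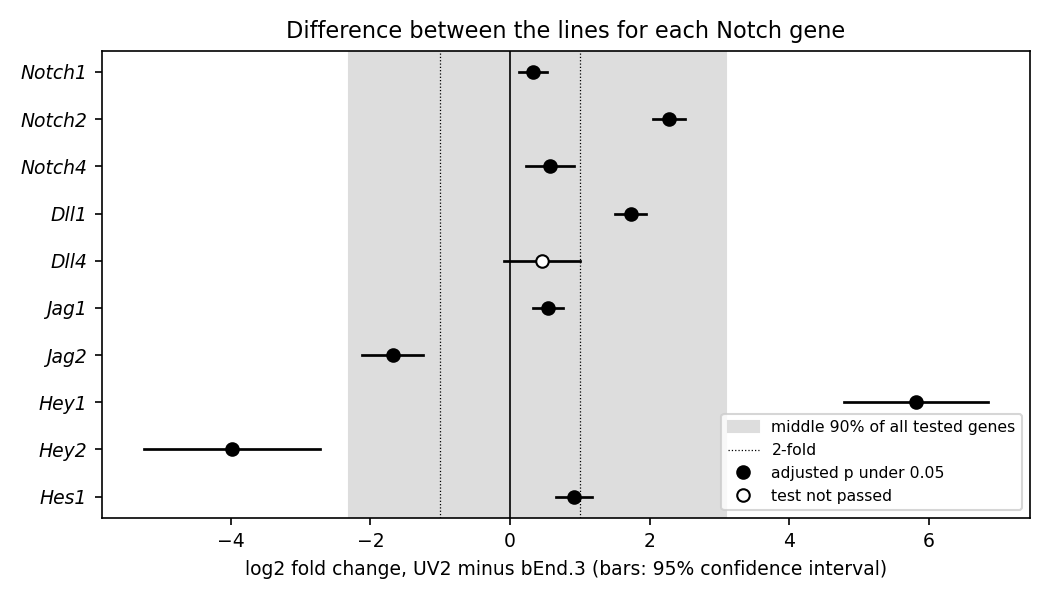
log2 fold change of each Notch gene, UV2 minus bEnd.3, with its 95% confidence interval. Filled points passed the test at an adjusted p under 0.05, the grey band holds the middle 90% of all tested genes (-2.31 to 3.09), and dotted lines mark 2-fold. Hey1 and Hey2 lie outside the band on opposite sides, and the interval of Dll4 crosses 0.

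Promoter sequence is shown for the genes that differed beyond 2-fold, since these carry the contrast between the lines. The bases printed are those before the annotated start that lie outside the gene's own exons in the GENCODE M21 annotation, from RefSeq's GRCm38.p6 (the assembly of mm10). Capitals mark TGGGAA, the core of the RBPJ site, which reads TTCCCA on the other strand, and CACGCG, a site that HES and HEY repressors can bind, which reads CGCGTG on the other strand. CACGTG, the palindromic E-box, was searched too, and both of these HES and HEY motifs were added after the expression values were known.
Notch2, chr3:98013288-98013526, plus strand: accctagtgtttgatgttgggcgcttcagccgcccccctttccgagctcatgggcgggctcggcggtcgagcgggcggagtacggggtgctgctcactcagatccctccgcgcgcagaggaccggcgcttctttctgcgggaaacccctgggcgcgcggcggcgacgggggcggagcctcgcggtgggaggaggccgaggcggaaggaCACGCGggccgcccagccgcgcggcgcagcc
Dll1, chr17:15376933-15377182, minus strand: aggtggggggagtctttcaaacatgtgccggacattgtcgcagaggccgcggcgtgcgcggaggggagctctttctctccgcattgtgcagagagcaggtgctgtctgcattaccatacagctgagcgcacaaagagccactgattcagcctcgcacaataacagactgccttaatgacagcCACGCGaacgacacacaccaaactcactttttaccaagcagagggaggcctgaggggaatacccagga
Hey2, chr10:30842802-30843033, minus strand: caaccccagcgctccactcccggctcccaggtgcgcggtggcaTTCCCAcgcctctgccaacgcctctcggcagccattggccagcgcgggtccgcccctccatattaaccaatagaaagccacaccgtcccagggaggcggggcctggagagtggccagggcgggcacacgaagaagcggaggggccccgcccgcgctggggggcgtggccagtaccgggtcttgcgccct
The promoter table held 8 of the 10 genes with 9 entries, Dll1 having 2, and did not list Hey1 or Hes1. For Jag2 the bases before the start fall within its own annotated exons and are not printed. In the 250 bases before each start, the RBPJ core was present in 1 of the 9 entries, that of Hey2, and in 21.6% of all 32851 promoters of the table. CACGCG was present in 4 of the 9, those of Notch2, Dll1, Dll4 and Jag1, and in 7.62% of all promoters, and CACGTG was present in 0 of the 9 and in 6.02% of all promoters. The entry of Notch4 held 4 CG pairs and the others 13 to 54, where the median of all promoters was 6. CACGCG and CACGTG contain CG themselves, and the shares of all promoters were not matched for CG pairs. The shares are therefore no measure of enrichment. These matches describe the letters of the windows and do not show binding.

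Among the receptors, all 3 rose in UV2, Notch2 by far the most. Notch1 (ENSMUSG00000026923.15, chromosome 2, 26457902 to 26503822, positions here and for the other genes being in GRCm38.p6) encodes the receptor most studied in endothelium. It had 465, 563 and 516 CPM in UV2 replicates 1, 2 and 3, against 402, 393 and 429.9 CPM in bEnd.3. Each UV2 library was above each bEnd.3 library, by a small step. The means were 515 ± 49.0 CPM in UV2 and 408 ± 19.3 CPM in bEnd.3 (SD, n = 3 each), a log2 fold change of 0.33 (SE 0.09, adjusted p = 0.00953). Exons of Notch1 overlap those of 0610009E02Rik and Gm13568 on the opposite strand. Whether the counting used strand is not stated in the sources used here, so its count is uncertain to that extent, as are those of Dll1 and Dll4 for the same reason.

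Notch4 (ENSMUSG00000015468.14, chromosome 17, 34564286 to 34588543) is a receptor found mainly in endothelial cells. It had 650.4, 766 and 697 CPM in the UV2 libraries, against 577, 383 and 461 CPM in bEnd.3. The UV2 libraries lay above all bEnd.3 libraries, which were spread more widely. Its means were 704 ± 58.2 CPM in UV2 and 474 ± 97.8 CPM in bEnd.3, with a log2 fold change of 0.57 (SE 0.15, adjusted p = 0.00902). Notch2 (ENSMUSG00000027878.11, chromosome 3, 98013538 to 98150367), a receptor with known roles in many tissues besides vessels, had 40.1, 44.8 and 39.5 CPM in UV2, against 8.34, 9.28 and 8.01 CPM in bEnd.3. Exons of Notch2 overlap Gm42820 on the same strand, where strand cannot separate the reads, so the Notch2 count is uncertain to that extent. The lines were far apart compared with the spread within either. Its log2 fold change of 2.28 (SE 0.10, adjusted p = 1.15e-06) also passed the test against 2-fold (adjusted p = 8.33e-06), while those of Notch1 and Notch4 did not (adjusted p = 1 for each). Notch3, the receptor of mural cells, held 1 count in the 3 UV2 libraries together and 11 in the 3 bEnd.3 libraries and was not tested.

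Of the ligands, Dll1 and Jag1 rose in UV2, Jag2 fell, and Dll4 did not pass the test. Dll1 (ENSMUSG00000014773.13, chromosome 17, 15367354 to 15376932) is a Delta-like ligand known from embryonic patterning and from arterial endothelium. It had 333, 397 and 378 CPM in UV2, against 105, 108 and 122 CPM in bEnd.3. The lowest UV2 library stood well above the highest bEnd.3 library. Its means were 369 ± 33.0 CPM in UV2 and 111 ± 9.08 CPM in bEnd.3, and its log2 fold change of 1.73 (SE 0.09, adjusted p = 3.30e-06) passed the test against 2-fold (adjusted p = 8.84e-05). Its exons overlap A930024N18Rik on the opposite strand.

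Dll4 (ENSMUSG00000027314.6, chromosome 2, 119325784 to 119335666) is the Delta-like ligand of tip cells and arteries. It had 160.2, 271 and 225 CPM in UV2, against 210.5, 129 and 137 CPM in bEnd.3. UV2 replicate 1 was the lowest of its line and bEnd.3 replicate 1 the highest of its line, and the lines overlapped. Its means were 219 ± 55.8 CPM in UV2 and 159 ± 44.9 CPM in bEnd.3, a log2 fold change of 0.46 (SE 0.23, 95% confidence interval -0.08 to 1.01, adjusted p = 0.115). Without UV2 replicate 1 the log2 fold change was 0.65 (adjusted p = 0.0382), and without bEnd.3 replicate 1 it was 0.72 (adjusted p = 0.0149), so either library decided the call. Dll4 exons overlap Gm14207 on the opposite strand, and its deposited counts were not whole numbers in any library, so part of its reads was shared out by the counting.

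Jag1 (ENSMUSG00000027276.7, chromosome 2, 137081451 to 137116520), a Jagged ligand known in sprouting to compete with Dll4, had 97.5, 81.3 and 96.0 CPM in UV2, against 66.1, 64.6 and 58.1 CPM in bEnd.3. The lines did not overlap. Its log2 fold change was 0.54 (SE 0.09, adjusted p = 0.00108), from means of 91.6 ± 8.92 CPM in UV2 and 62.9 ± 4.20 CPM in bEnd.3. Jag2 (ENSMUSG00000002799.6, chromosome 12, 112907803 to 112929812), the other Jagged ligand, was low in both lines, with 1.82, 1.50 and 2.04 CPM in UV2, against 4.98, 6.39 and 5.94 CPM in bEnd.3. It ran the other way from Dll1 and Jag1, all UV2 libraries being below all bEnd.3 libraries. Its log2 fold change of -1.68 (SE 0.19, adjusted p = 0.000124) passed the test against 2-fold (adjusted p = 0.00492).

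The targets Hey1 and Hey2 gave the largest differences of the 10 genes, in opposite directions. Hey1 (ENSMUSG00000040289.8, chromosome 3, 8663359 to 8667038) encodes a HEY repressor that Notch induces in endothelium. It had 22.9, 48.5 and 52.4 CPM in UV2, against 0.987, 0.896 and 0.373 CPM in bEnd.3. UV2 replicate 1 was the lowest of its line and bEnd.3 replicate 3 the lowest of the other, yet every UV2 library was far above the bEnd.3 libraries, which held 22, 22 and 11 counts. The log2 fold change was 5.81 (SE 0.44, adjusted p = 1.76e-05, adjusted p = 4.30e-05 against 2-fold). Hey2 (ENSMUSG00000019789.9, chromosome 10, 30832359 to 30842783), its close relative, known for its part in artery and heart formation, had 0.0845, 0.145 and 0.0771 CPM in UV2, from 2, 3 and 2 counts, against 0.897, 1.63 and 2.38 CPM in bEnd.3, from 20, 40 and 70 counts. It was near the limit of detection in UV2 and low but always counted in bEnd.3. Its log2 fold change was -3.98 (SE 0.54, adjusted p = 0.00034, adjusted p = 0.00164 against 2-fold). Hes1 (ENSMUSG00000022528.8, chromosome 16, 30065357 to 30067796), a HES repressor induced by Notch in many cell types, had 73.7, 81.1 and 91.3 CPM in UV2, against 40.4, 40.5 and 49.3 CPM in bEnd.3. The UV2 libraries were all above the bEnd.3 libraries. The log2 fold change was 0.92 (SE 0.11, adjusted p = 0.000197), which did not pass the test against 2-fold (adjusted p = 1).

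The spread within a line differed among the genes. In UV2 the coefficient of variation over 3 libraries was 38.8% for Hey1, 36.6% for Hey2 and 25.5% for Dll4, and at most 15.2% for the others. In bEnd.3 it was 45.3% for Hey2, 44.0% for Hey1, 28.3% for Dll4 and 20.7% for Notch4, and at most 12.5% for the others. Hey2 in UV2 and Hey1 in bEnd.3 rested on few counts. Hey1 in UV2, with 542, 1001 and 1359 counts, and Dll4 in both lines did not.

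Levels of different genes were compared per length, as CPM per kilobase (kb) of the longest GENCODE transcript matched to the gene's RefSeq mRNA. In UV2 the order was Notch4 (107 ± 8.83 CPM per kb), Dll1 (103 ± 9.21), Dll4 (58.4 ± 14.9), Hes1 (55.9 ± 6.02), Notch1 (54.3 ± 5.17), Hey1 (17.0 ± 6.62), Jag1 (16.3 ± 1.59), Notch2 (3.95 ± 0.276), Jag2 (0.350 ± 0.0532) and Hey2 (0.0401 ± 0.0147). Neighbours whose UV2 libraries overlapped were Notch4 and Dll1, Dll4 and Hes1, Hes1 and Notch1, and Hey1 and Jag1. In bEnd.3 the order was Notch4 (71.9 ± 14.8 CPM per kb), Notch1 (43.0 ± 2.04), Dll4 (42.4 ± 12.0), Dll1 (31.1 ± 2.54), Hes1 (29.6 ± 3.47), Jag1 (11.2 ± 0.749), Jag2 (1.13 ± 0.141), Notch2 (0.814 ± 0.0628), Hey2 (0.641 ± 0.290) and Hey1 (0.310 ± 0.137). Neighbours that overlapped in bEnd.3 were Notch1 and Dll4, Dll1 and Hes1, Notch2 and Hey2, and Hey2 and Hey1. With the length of all annotated exons in place of 1 transcript, only such overlapping neighbours changed places.

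Shares of each class on this per-length scale showed how its make-up differed. Dll1 made up 60.6%, 55.9% and 57.7% of the 4 ligands in the UV2 libraries, against 29.8%, 39.0% and 41.4% in bEnd.3. Dll4 made up 27.9%, 36.6% and 32.7% in UV2, against 57.2%, 44.5% and 44.6% in bEnd.3. Thus Dll1 was the largest ligand share in every UV2 library and Dll4 in every bEnd.3 library, and the lines overlapped for neither. With 3 libraries against 3 an exact two-sided permutation test cannot give a p under 0.1, and it gave 0.1 for both ligands and for each of the other shares except those of Notch1 and Notch4. Adjusted over the 10 shares tested, 0.1 became 0.125. Shares of a class depend on each other, so these are not 10 separate results. With same-numbered libraries as pairs the smallest possible p is 0.25, which every share but that of Notch4 had, so neither form of the test can pass the threshold. Among the 3 receptors, Notch4 took 64.5% to 65.1% in UV2 and 57.9% to 67.0% in bEnd.3, and Notch1 took 32.4% to 33.2% in UV2 and 32.4% to 41.2% in bEnd.3, with overlap in both cases (exact permutation p = 0.4 for Notch4 and 0.3 for Notch1). The Notch1 share was lower in UV2 in 3 of 3 same-numbered pairs, narrowly so in replicate 1 (32.36% in UV2 against 32.38% in bEnd.3), and that of Notch4 was higher in 2 of 3. The Notch2 share was small in both lines, at 2.29% to 2.52% in UV2 and 0.608% to 0.880% in bEnd.3. Among the targets, Hes1 made up 84.1%, 73.4% and 74.2% in UV2, against 97.3%, 96.5% and 96.9% in bEnd.3. Hey1 made up 15.8%, 26.6% and 25.8% in UV2, against 1.44%, 1.29% and 0.445% in bEnd.3.

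**Figure D3:**
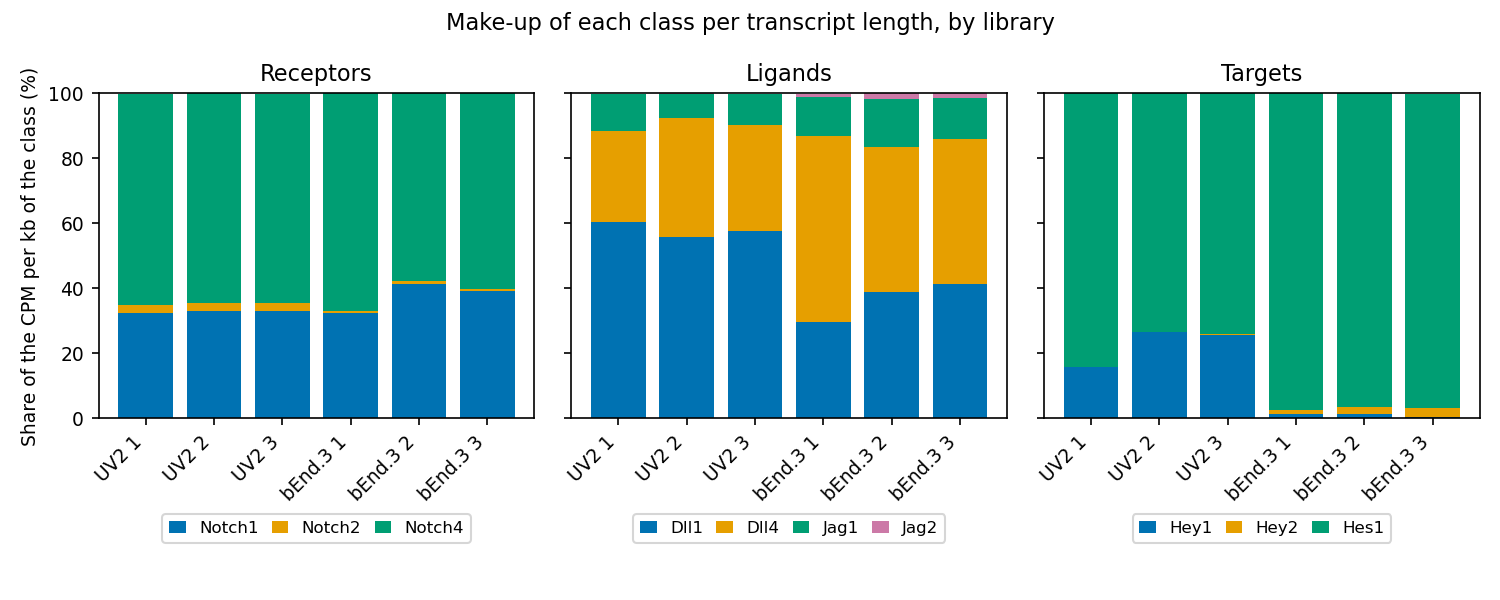
Share of each gene in the summed CPM per kb of its class (receptors, ligands or targets) in each library, UV2 libraries left of bEnd.3 libraries. Bars sum to 100% by construction. Dll1 is the largest ligand share in the 3 UV2 libraries and Dll4 in the 3 bEnd.3 libraries, and Hey1 is visible as a sizeable share in UV2.

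The machinery around these genes moved both ways. Of 77 genes in 6 further lists of the pathway, 64 were tested, and 20 were higher in UV2, 20 lower and 24 did not pass the test, close to the shares of all tested genes. Their median log2 fold change was -0.02. The single lists below held 2 to 19 tested genes each, and their counts stand beside the same shares of all tested genes, 33.9% higher and 33.3% lower. The remaining members of the receptor, ligand and HES/HEY families were mostly near 0: only 2 of 12 were tested. Dner, a Notch ligand known mainly from neurons, fell, with 3 counts in the UV2 libraries together and 4.04, 28.2 and 16.2 CPM in the bEnd.3 libraries, a bEnd.3 to UV2 ratio of 386 (95% counting interval 132 to 1877, which covers counting error only). Its fitted log2 fold change was -8.40 (SE 1.13, adjusted p = 0.000312), and became -9.19 when UV2 replicate 3 was left out and -7.73 when bEnd.3 replicate 2 was left out. Hes6, a HES relative that opposes HES1, had 16.7 ± 0.358 CPM in UV2 and 18.1 ± 2.50 CPM in bEnd.3 (adjusted p = 0.423).

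Of the genes that modify ligands and receptors, 3 of 9 tested were higher in UV2, 4 lower and 2 did not pass the test, with a median log2 fold change of -0.09. Mfng, a Fringe sugar transferase that changes which ligands a receptor answers, averaged 317 ± 4.91 CPM in UV2 and 141 ± 7.80 CPM in bEnd.3 (log2 fold change 1.16, SE 0.07, adjusted p = 4.22e-06), and Mib2, a ubiquitin ligase of ligands, rose by 0.79 (SE 0.18). Neurl1b, another ligase of ligands, fell to 0.902 ± 0.512 CPM in UV2, against 20.4 ± 3.91 CPM in bEnd.3 (log2 fold change -4.50, SE 0.33, adjusted p = 1.45e-05). Eogt, which adds a sugar to EGF repeats, fell to 48.0 ± 2.34 CPM in UV2, against 275 ± 19.6 CPM in bEnd.3 (log2 fold change -2.52, SE 0.08). Neurl1a, with 17 counts in UV2 and 3 in bEnd.3, was not tested.

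Receptor cleavage genes were higher in UV2 at 5 of 9 tested members and lower at 2, while 2 did not pass the test, with a median log2 fold change of 0.26. Furin, the convertase that cuts the receptor precursor among many other substrates, had 940.1 ± 152 CPM in UV2 and 225 ± 33.0 CPM in bEnd.3 (log2 fold change 2.06, SE 0.15, adjusted p = 1.53e-05). Psen2, a catalytic subunit of gamma-secretase, rose by 0.96 (SE 0.10), and nicastrin, Ncstn, the subunit that receives the substrate, changed by -0.74 (SE 0.06, adjusted p = 3.36e-05). Aph1b, a further subunit, changed by -0.46 (SE 0.10, adjusted p = 0.00449), a call lost when chromosome medians were removed (adjusted p = 0.124), which left 1 lower gene. Aph1c, with 25 counts in UV2 and 26 in bEnd.3, was not tested.

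Among nuclear partners and corepressors, 7 of 19 tested were higher in UV2, 3 lower and 9 did not pass the test, with a median log2 fold change of 0.06. Maml3, a Mastermind coactivator, had 47.0 ± 5.40 CPM in UV2 and 6.60 ± 1.48 CPM in bEnd.3 (log2 fold change 2.84, SE 0.17, adjusted p = 4.89e-06), and Spen, a corepressor of RBPJ targets, rose by 1.38 (SE 0.06). Snw1, an adaptor of the complex, changed by -0.49 (SE 0.06, adjusted p = 0.000158). Rbpj itself had 55.6 ± 3.80 CPM in UV2 and 66.7 ± 7.21 CPM in bEnd.3 (log2 fold change -0.26, SE 0.10, adjusted p = 0.0395). The Rbpj call was lost without any of the UV2 libraries or without bEnd.3 replicates 2 or 3, with adjusted p-values of 0.0540, 0.0917, 0.125, 0.151 and 0.0681, and also with chromosome medians removed (adjusted p = 0.138). The count of 3 lower genes was 1 without UV2 replicates 2 or 3 or bEnd.3 replicates 2 or 3, and 5 without bEnd.3 replicate 1.

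Of the genes of turnover and inhibition, 2 of 10 tested were higher in UV2, 3 lower and 5 did not pass the test, with a median of -0.06. Numb, an inhibitor that sends the receptor to degradation, had 52.8 ± 5.02 CPM in UV2 and 96.1 ± 6.52 CPM in bEnd.3 (log2 fold change -0.86, SE 0.09, adjusted p = 8.54e-05), and Egfl7, a secreted endothelial protein that can bind Notch, changed by -0.67 (SE 0.08). The Deltex genes Dtx2 and Dtx4 rose by 0.54 (SE 0.09) and 1.36 (SE 0.42, adjusted p = 0.0214). The Dtx4 call was lost without UV2 replicates 1 or 2 or bEnd.3 replicate 3 (adjusted p = 0.0528, 0.0786 and 0.0677), each of which left 1 higher gene in the list. Dtx1 had 0 counts in every library.

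Endothelial genes linked to Notch, a list that shares Nrarp with the one before, held large differences in both directions. Of 16 tested, 3 rose in UV2 (5 with the replicate number as a block), 7 fell (8 with the block) and the other 6 missed the threshold, with a median log2 fold change of -0.33. Efnb2, the arterial ephrin, had 401, 667 and 583 CPM in UV2, against 110.5, 131 and 117 CPM in bEnd.3 (log2 fold change 2.21, SE 0.18, adjusted p = 2.68e-05). Flt4, a VEGF receptor, rose by 1.07 (SE 0.09). Gja5, the connexin of arterial endothelium, had 0, 0.0485 and 0.116 CPM in UV2, from 0, 1 and 3 counts, against 9.33, 38.4 and 18.3 CPM in bEnd.3. Its fitted log2 fold change of -8.47 (SE 0.89) rests on those few UV2 counts, so its size is imprecise. It became -9.63 when UV2 replicate 3 was left out and -7.80 when bEnd.3 replicate 2 was left out. Sox17, an arterial transcription factor that acts upstream of Notch, had 0.423, 0.242 and 0.308 CPM in UV2, against 61.8, 65.3 and 52.7 CPM in bEnd.3 (log2 fold change -7.49, SE 0.18, adjusted p = 8.90e-08). Cxcr4, a chemokine receptor of tip cells, had 0 counts in the 3 UV2 libraries together and 68 in the bEnd.3 libraries, at least 20.9-fold lower in UV2 against a floor of 3 counts over the line. Nrarp, a direct Notch target that feeds back on the pathway, had 150.1, 182 and 173 CPM in UV2, against 165, 117 and 137 CPM in bEnd.3, which overlapped (log2 fold change 0.27, SE 0.13, adjusted p = 0.102).

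**Figure D4:**
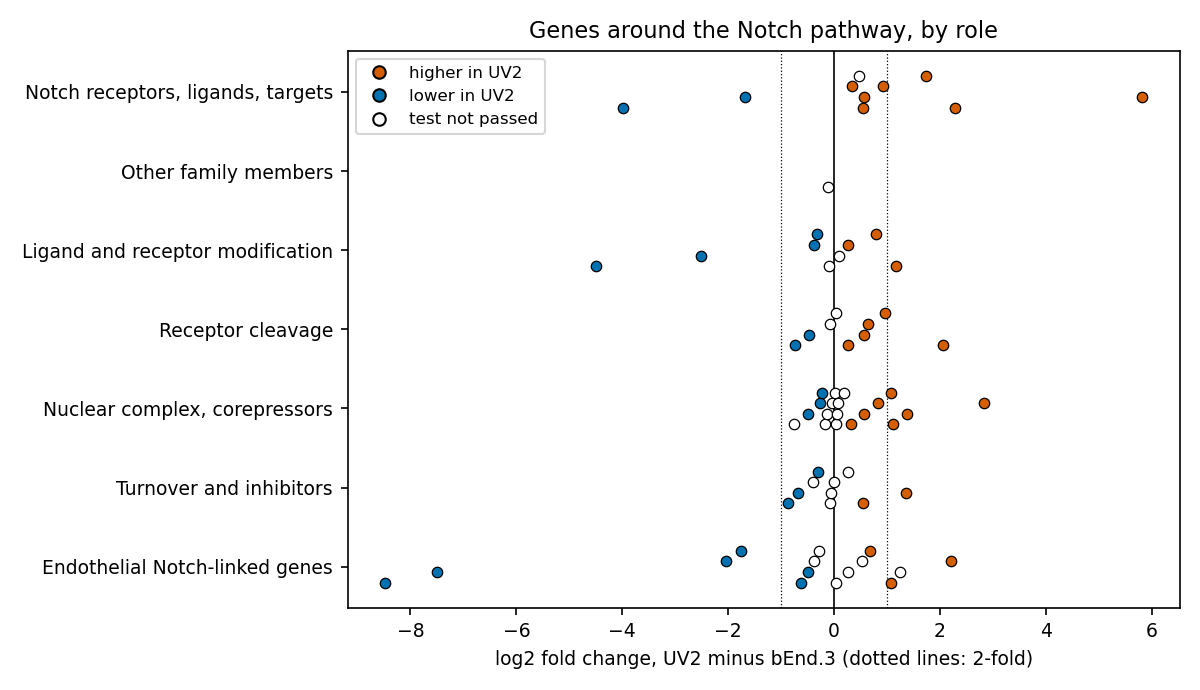
log2 fold change, UV2 minus bEnd.3, of the 10 Notch genes and of the tested genes of each further list, with 1 point per gene. Orange points were higher and blue points lower in UV2, white points did not pass the test, and dotted lines mark 2-fold. Dner and Cxcr4, with 3 and 0 counts in UV2, are left out. In each list with more than 1 point, points lie on both sides of 0.

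Profiles over the 6 libraries were compared by the root mean square difference of log2(CPM + 0.5), each profile centred on its own mean, so that a smaller value is a closer match. Both lines enter each profile, so the measure reflects the difference between the lines first. The nearest genes were Lipm (0.31) and Atp2b2 (0.31) for Hey1, AI467606 (0.12) and Ager (0.12) for Hey2, and Tmem50a (0.05) and Stat5a (0.05) for Hes1. For the receptors they were Pex7 (0.03) and Zcchc7 (0.04) for Notch1, Isl2 (0.07) and Tmem254b (0.09) for Notch2, and Dusp5 (0.08) and Etl4 (0.08) for Notch4. For the ligands they were Crip1 (0.06) and Abhd2 (0.07) for Dll1, Adamts4 (0.13) and Ch25h (0.13) for Dll4, Adat3 (0.05) and Rab26os (0.05) for Jag1, and Uvrag (0.08) and Eda2r (0.08) for Jag2. Hey1 had no gene as near as the other 9 had. The value of 0.5 added to each level makes a gene with almost no counts in 1 line, such as Isl2, resemble one with a moderate difference.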

How the data were processed

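Libraries were made from bulk RNA with a stranded mRNA kit and grouped by the cell line in the labels, 3 per line. The authors deposited expected counts per gene symbol, not normalized. Trim Galore, STAR, RSEM and mm10 are named in the submitters' processing notes, whereas versions, gene annotation and strand setting are not stated in the sources used here. Reads that fit several genes are shared among them in such counts. Values off a whole number made up 8.23% to 8.73% of the genes in a library, and all were rounded.

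Genes were kept by filterByExpr in edgeR 4.0.16 (12720 of 24411), scaled by TMM, and fitted with its quasi-likelihood test with the line as the only term, called at an adjusted p under 0.05. The glmTreat function tested changes beyond 2-fold. SEs were the fitted log2 coefficient over the root of F. The common biological coefficient of variation was 0.124. The members and lists were chosen with earlier results of these data known. All 10 members were named, and of each other list the 2 highest and 2 lowest called genes whose mean reached 1 CPM in either line, with those filtered out where they numbered 6 or fewer. Hes6, Nrarp, Notch3, Cxcr4 and the genes named from the cell type markers, such as Tie1, Robo4 and Emcn, were named after their values were seen. One marker gene is not reported here. Lengths came from GENCODE M21 and promoters from RefSeq GRCm38.p6. The code was tested on simulated counts. Replicates differed by more than sampling noise (chi-square per degree of freedom 11.3 to 38.4). Same-numbered libraries of the lines deviated together, with a correlation over genes of 0.12 to 0.26, and -0.27 to 0.08 for other pairs. The numbers were therefore taken to pair them from the data, not from the labels. The correlation at replicate 1 (0.12) was close to that of UV2 replicate 2 with bEnd.3 replicate 1 (0.08), so the pairing is not established. The main fit does not use this pairing, and the replicate block does. There were 16 alternatives, among them DESeq2 1.42.0, limma-voom (limma 3.58.1), other scalings and filters, a replicate block, each library left out, and removal of chromosome medians. The paired permutation test of the class shares was added after the data were seen. Software was R 4.3.3, Python 3.11.15 and matplotlib 3.10.9.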

Additional observations from a re-analysis of the deposited data

How the results depend on the processing

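Under 16 alternatives, 9 of the 10 Notch genes kept their direction and their call wherever they were tested. Hey2 was not tested when genes had to reach 1 CPM in any 3 libraries, which left 1 lower gene and 1 lower gene beyond 2-fold in place of 2. The log2 fold change of Dll4 passed the test at 0.73 (adjusted p = 0.027) with chromosome medians removed and lay between 0.28 and 0.72 with each library left out. Its adjusted p ran from 0.0149 to 0.352 over the alternatives. The genes called higher numbered 3868 to 4630 and those called lower 3765 to 4716 over all alternatives. With the replicate number as a block, 7 Notch genes were higher and 2 lower, 4380 and 4302 genes were called higher and lower in all, and apart from the endothelial list no call changed among the Notch genes and the genes named by rule. The lower genes among nuclear partners also numbered 5 with total counts and with upper quartile factors, 4 with limma-voom and 2 with the replicate block. Hey2 in UV2 rested on 7 counts and Hey1 in bEnd.3 on 55, so their folds are the least precise. None of the log2 fold changes of the 10 Notch genes and the genes named by rule reversed under these alternatives. Class shares, list medians, Nrarp, Hes6 and Cxcr4 were not recomputed under them.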

Other observations

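UV2 replicate 1 was the lowest library of its line for 6 of the 10 Notch genes, namely Notch1, Notch4, Dll1, Dll4, Hey1 and Hes1, while 33.1% of all tested genes had their lowest UV2 value there. UV2 replicate 2 was the highest of its line for 6 of the 10, against 32.1% of all tested genes. In bEnd.3 no library was the lowest or the highest for more than 4 of the 10. With 3 libraries per line these are descriptions and were not tested.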
